A study of Mus musculus with 6 samples.

Results

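Protein phosphatases remove phosphate groups from serine and threonine, and most of them work as complexes of a catalytic subunit with partners that direct it. Genes of these subunits were taken from the count table by symbol, as every gene whose mouse symbol starts with *Ppp1* to *Ppp6* followed by c (catalytic) or r (regulatory). This gave 75 genes among the 22322 in the table, and 70 of them had enough counts to be tested among 14188 tested genes. The 5 left out were *Ppp1r1c*, *Ppp1r3a*, *Ppp1r14d* and *Ppp3r2*, with means of at most 6 counts, and *Ppp1r27*, which had 0 counts in every sample, where 3 counts would correspond to 0.181 to 0.564 CPM (counts per TMM-scaled library size). *Ppp2ca*, the catalytic alpha gene of PP2A, is the member that the study singled out from these same samples, so its values here describe those libraries and are not independent evidence.

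The samples were RNA of the arcuate nucleus (ARC) of the hypothalamus, cut from frozen brain sections of male mice with a laser, and therefore hold neurons, glia and vessel cells together. Mice were 4 weeks old at the start and for 16 weeks ate normal chow with 16.5% fat (NCD) or feed with 60% fat (high-fat diet, HFD), and each group has 3 samples. The study describes no transgene or drug that separates the groups. To see the *Kiss1* neurons of the ARC, it crossed a *Kiss1*-Cre line with a fluorescent reporter line, and it also lists wild-type mice. The sources used here do not give the strain of the sequenced mice or whether they carried the Cre or reporter alleles. Any bearing of these alleles on the *Kiss1* counts below was not tested. Whether a sample was 1 mouse or a pool is also not given, so p-values measure the spread between these samples.

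Total counts were 15925648, 9937632 and 6882449 in NCD1 to NCD3, and 8024664, 10479778 and 5171381 in HFD1 to HFD3. The 3 smallest libraries are thus HFD3, NCD3 and HFD1. The phosphatase subunit genes together held between 0.567% (NCD3) and 0.624% (NCD1) of these counts. Markers of ARC neurons were present, with 14 of 14 tested and *Cartpt* the most abundant at a mean of 749 FPKM (fragments scaled to transcript length and mapped reads). *Kiss1*, whose neurons guided the dissection, was at 0 counts in NCD1 and HFD1 and between 21 and 42 counts in the other samples. All of its exon bases also belong to a gene named *Gm28040* in the annotation, which had 3 counts in NCD1 and 0 in every other sample. Another gene of that name, which shares 63.9% of them, held 70 and 99 counts in NCD1 and HFD1. It held 15, 25, 39 and 37 counts in NCD2, NCD3, HFD2 and HFD3.

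PP2A, the main cellular phosphatase together with PP1, is a trimer. A catalytic C subunit sits on a scaffold A subunit, and 1 of many B subunits, of families such as B55, B56 and B'', chooses the substrates. PP2A removes phosphate from kinases such as AKT, and is abundant in brain. PP1 has few catalytic subunits and a large number of targeting and inhibitor proteins. PP3 is calcineurin, the calcium-activated phosphatase of neurons, and PP4, PP5 and PP6 are relatives of PP2A.

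*Ppp2ca* lies on the plus strand of chromosome 11, at chr11:52098681-52127778 in GRCm38 (mm10), and its paralog *Ppp2cb* at chr8:33599625-33619441. The promoter window of *Ppp2ca* in RefSeq (GRCm38.p6, 250 bases before to 50 after the start) contains a full cAMP response element, TGACGTCA, the site at which CREB-family factors bind. It is shown because CREB is among the proteins the study examined with PP2A. The study places CREB1 downstream of PP2A, through AKT, and does not describe CREB acting on this promoter. Upstream, it reports that the PP2A catalytic protein rose when NF-kB signalling was activated. The stretch below covers chr11:52098787-52098816 on the plus strand, and capitals mark the element, whose first base is 26 bases upstream of the RefSeq start.
Ppp2ca promoter: tgacgctggcgTGACGTCAccacgccgggc
The element reads the same on both strands and was found in 588 of 32851 windows of that length (1.79%). Among the members, 59 genes had windows, 72 in all, and 5 of those windows, of 4 genes, held it (6.94%), namely *Ppp1r12c*, *Ppp1r15a*, *Ppp2ca* and *Ppp2r2d*. The shorter letters TGACG, which the full element contains, searched on both strands, were in 20.8% of all windows and 43.1% of the members' windows. The kappaB consensus, searched on both strands, was in 4.51% of all windows and in 2.78% of the members' windows, those of *Ppp1r36* and *Ppp4r3b*. It did not occur in these letters in the window of *Ppp2ca*. A match in letters, or the lack of one in a window, is a description and says nothing about binding or about control of the gene.

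The coding sequences of *Ppp2ca* and *Ppp2cb* are each 930 bases long, and 760 of these bases (81.7%) are the same. Whether reads can be assigned to the right paralog depends on how far such bases are apart. The longest run that both share is 25 bases, at coding bases 15 to 39 of *Ppp2ca*. The 30 coding bases that differ most, 64 to 93, hold 12 differences, which are in capitals in the lines below.
Ppp2ca and Ppp2cb, longest shared run: gttcaccaaggagctggaccagtgg
Ppp2ca, bases 64 to 93: cagctCTCcgagTCccaGgtCAAgaGCctC
Ppp2cb, bases 64 to 93: cagctGAAcgagAAccaAgtGCGgaCGctG
In the 3′ untranslated region the annotation places a long noncoding RNA, *9430098F02Rik*, on the opposite strand. It covers 2985 exon bases of *Ppp2ca*, which is 51.4% of its 5804-base untranslated region and 39.9% of all its exon bases. Neither the labels nor the methods say whether reads were counted by strand, and this RNA was not analysed here. Reads from it could not be told apart from those of *Ppp2ca* without strand.

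Across the whole family, the differences between HFD and NCD samples were mostly small. Of 70 genes tested, 33 were higher and 37 lower on HFD, with a median log2 fold change of -0.01 against 0.00 over all genes tested, and 62 were within 0.5 of zero on the log2 scale. None had an adjusted p under 0.05 by edgeR's quasi-likelihood test (lowest adjusted p = 0.999), where 0.0564% of all genes tested did. By DESeq2 the number was also 0. At an unadjusted p under 0.05 there were 3 of 70 (4.29%), against 2.3% of all genes. They were *Ppp2ca*, higher on HFD (1.21% of all genes were called in this direction), and *Ppp1r3c* and *Ppp1r14c*, lower (1.09%). With the study's further condition of a fold over 1.5, only *Ppp2ca* remained, 1 of 70 (1.43%) against 1.9% of all genes in either direction and 1.01% in the direction of HFD. The numbers moved with single libraries, since from 0 (without HFD3) to 10 members (without NCD3) had an unadjusted p under 0.05 when 1 sample was left out. Over all genes tested the shares were 1.94% without HFD3 and 8.13% without NCD3.

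**Figure D1:**
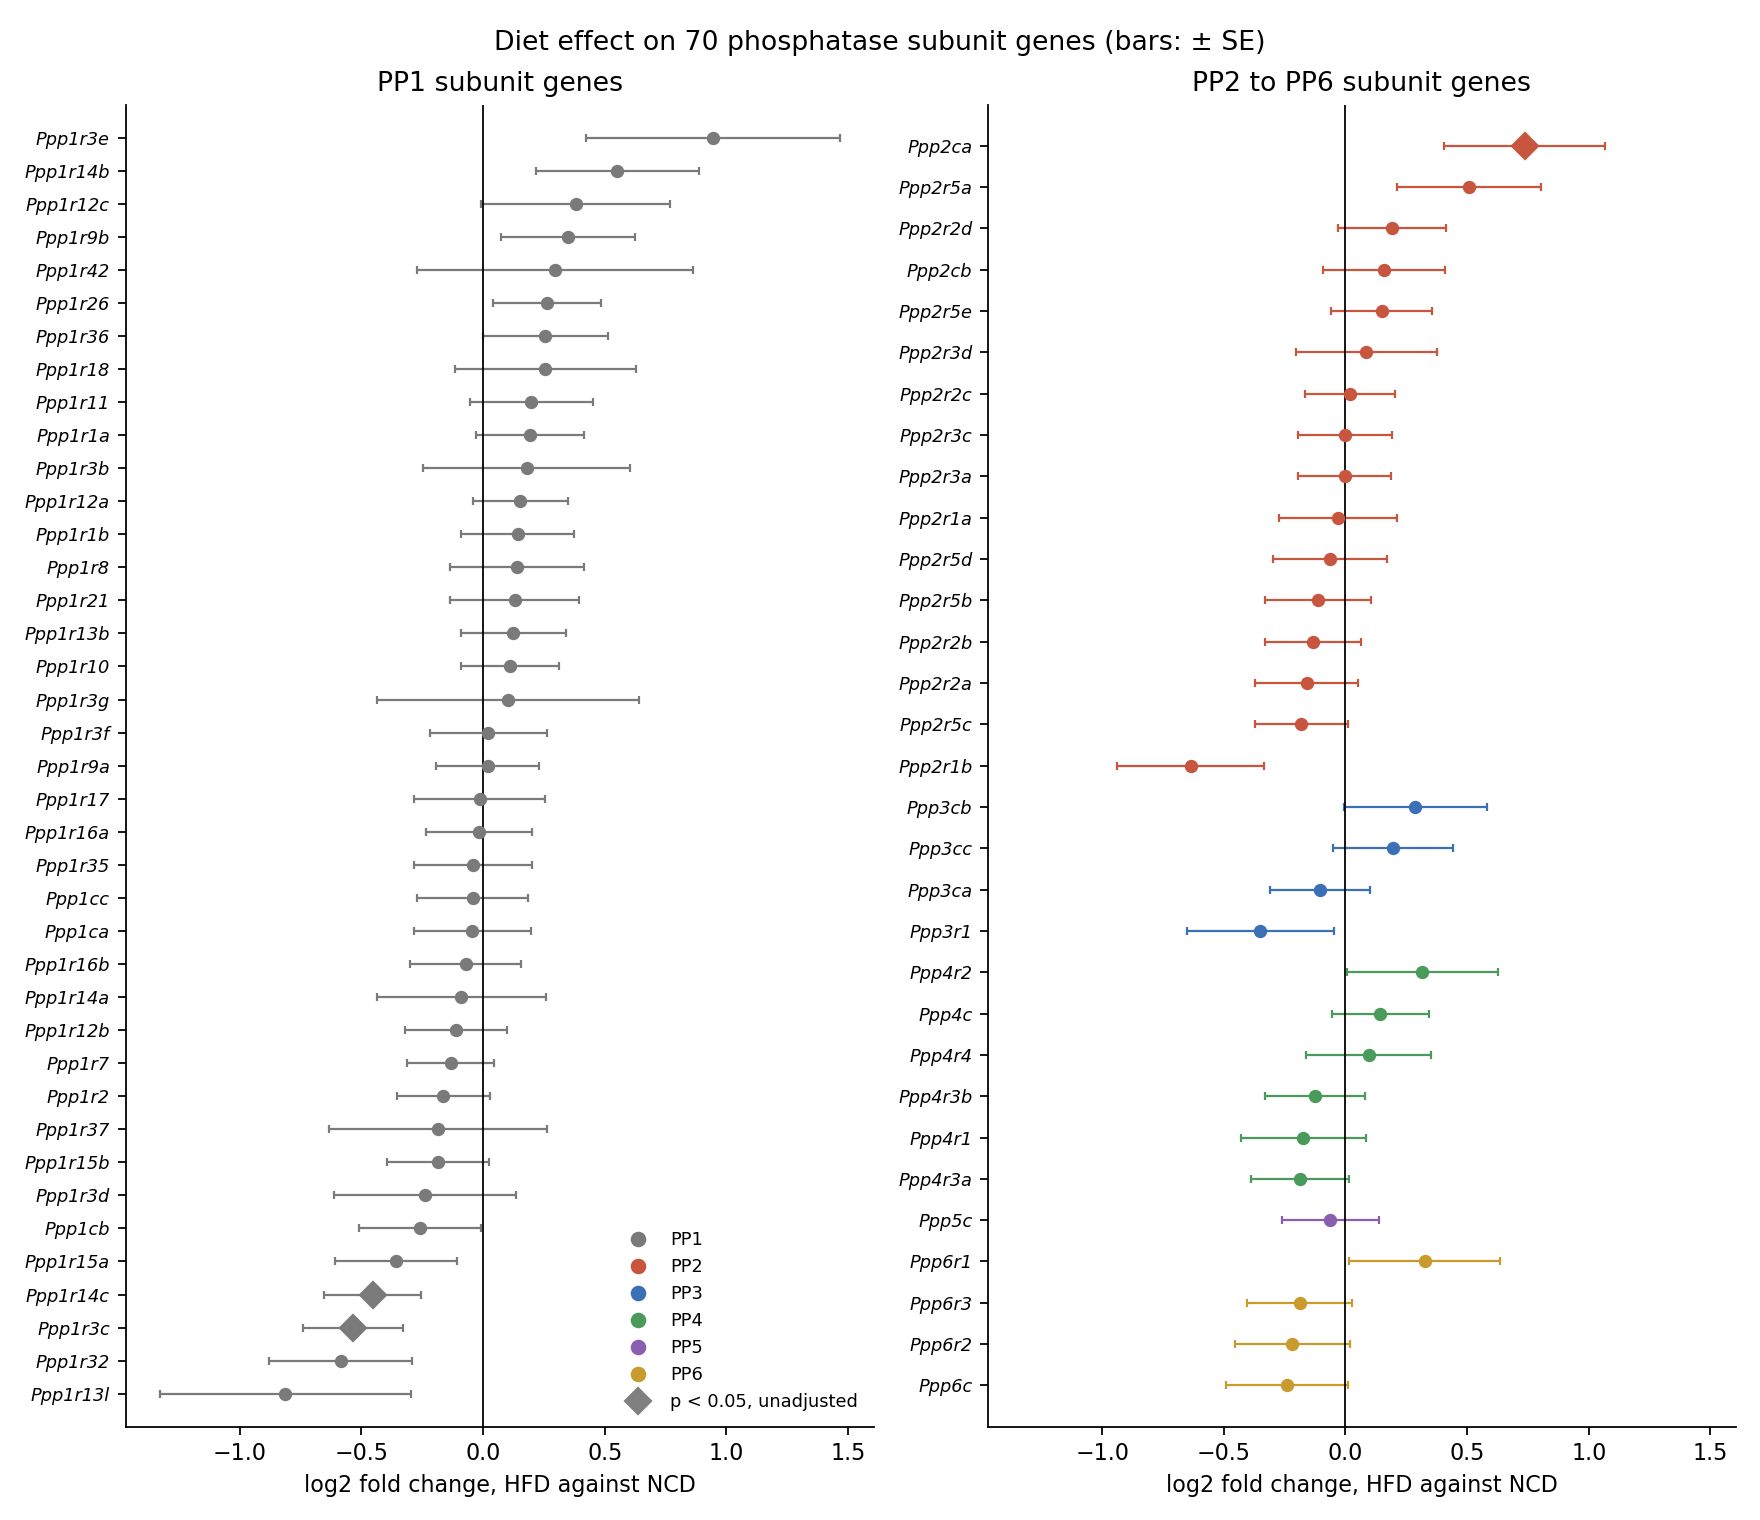
Log2 fold change of each tested phosphatase subunit gene, HFD against NCD (x axis), with bars for ± SE, PP1 genes on the left and PP2 to PP6 genes on the right, each class ordered by size. Most points lie close to zero, and the 3 diamonds (*Ppp2ca*, *Ppp1r3c*, *Ppp1r14c*) are the genes with an unadjusted p under 0.05.

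Among the PP2A genes, *Ppp2ca* had 158, 123 and 218 CPM in NCD1 to NCD3, and 353, 141 and 339 CPM in HFD1 to HFD3. HFD1 and HFD3 were above every NCD sample, whereas HFD2 lay inside the NCD range, so the groups overlapped. The log2 fold change was 0.74 with an SE of 0.33, a 1.67-fold higher level on HFD. The unadjusted p was 0.0444 and the adjusted p was 0.999 by edgeR, and by the exact permutation test, which cannot go below 0.1 here, p was 0.3. In the order of unadjusted p, *Ppp2ca* stood at place 291 of all genes tested. Leaving out HFD2 gave a log2 fold change of 1.05 and leaving out HFD1 gave 0.52. Without NCD1, NCD2, HFD1 or HFD3 the unadjusted p was 0.0940, 0.176, 0.182 or 0.152, and without NCD3 or HFD2 it was 0.0109 or 0.00202.

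*Ppp2cb*, the catalytic beta gene, whose protein replaces the alpha form in the same trimers, had 15.2, 21.5 and 28.1 CPM on NCD and 25.7, 24.0 and 22.0 CPM on HFD. All HFD samples were inside the NCD range, with a log2 fold change of 0.16 ± 0.25 (SE). Per transcript length the catalytic genes were closer together than in CPM, since *Ppp2ca* had a mean of 31.4 FPKM and *Ppp2cb* of 15.4 FPKM.

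The scaffold gene *Ppp2r1a* was the most abundant phosphatase subunit gene per length, with a mean of 213 FPKM. Its levels were 550, 570 and 436 CPM on NCD and 524, 625 and 374 CPM on HFD, with a log2 fold change of -0.03 ± 0.24 (SE). *Ppp2r1b*, the minor scaffold gene at 5.37 FPKM, had 29.4, 18.8 and 14.4 CPM on NCD and 14.0, 16.5 and 9.78 CPM on HFD. HFD2 overlapped the NCD samples, and NCD1 stood above all others. The log2 fold change was -0.64 ± 0.30 (SE), with an unadjusted p of 0.0560 and an adjusted p of 0.999. It was -0.31 without NCD1, -0.25 with log2 library size in the model and -0.35 by limma on log2(FPKM + 1). The unadjusted p fell under 0.05 without NCD3 (log2 fold change -0.83, unadjusted p = 0.0124 by edgeR) or HFD2 (-0.81, unadjusted p = 0.0339), when samples were blocked by replicate number (unadjusted p = 0.0266) and with genes of at least 1 count kept (unadjusted p = 0.0385). Of the exon bases of *Ppp2r1b*, 22.2% overlap *Sik2* on the opposite strand.

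**Figure D2:**
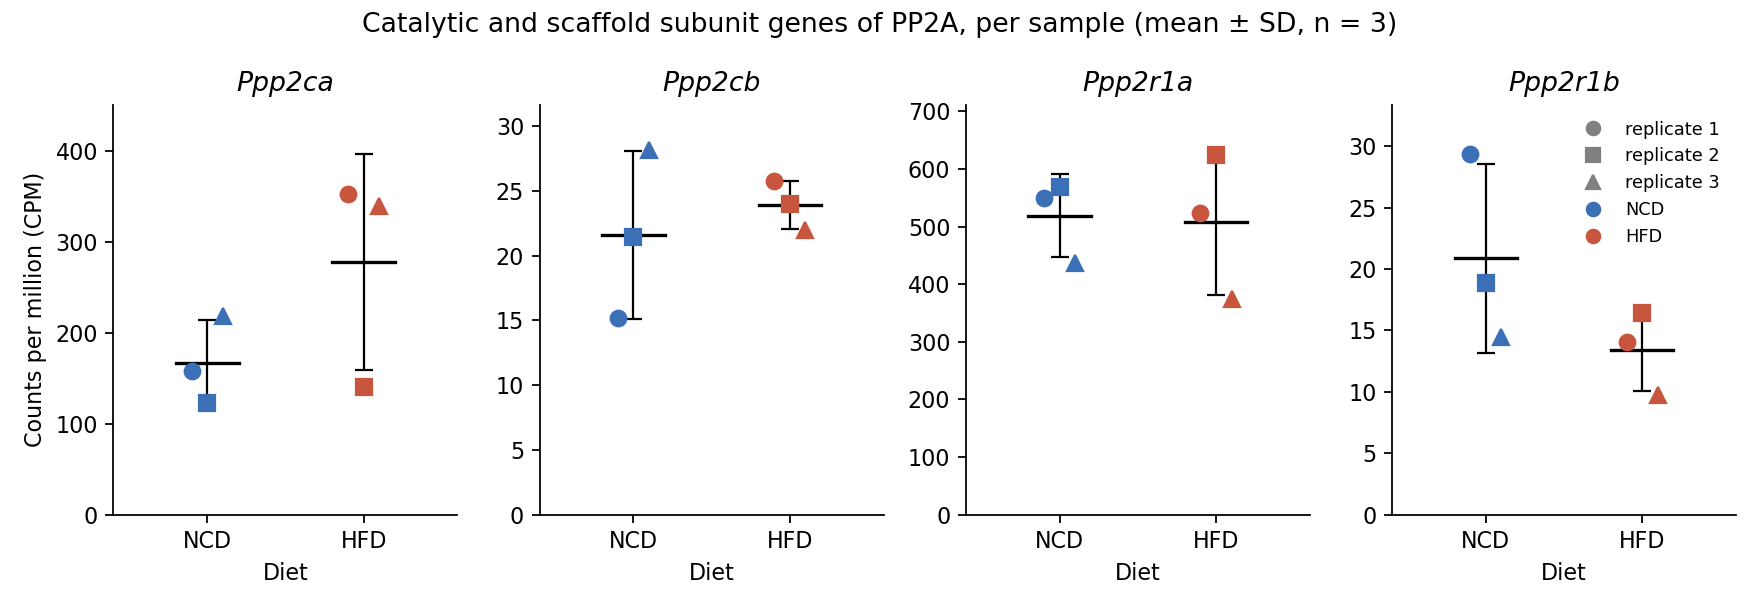
CPM of the catalytic and scaffold genes of PP2A in each sample (y axis from 0, points by replicate), with the mean as a line and the SD as a bar, n = 3 per diet. *Ppp2ca* is at 353 and 339 CPM in 2 HFD samples and at 141 CPM in HFD2, within the NCD samples.

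*Ppp2ca* was also set against its partners within each library. The log2 ratio of *Ppp2ca* to *Ppp2cb* counts was 3.37, 2.51 and 2.94 on NCD and 3.76, 2.55 and 3.92 on HFD. HFD2 was again beside NCD2. The difference of the means was 0.47, with p = 0.4 by a two-sided exact permutation test. It was 0.21 without HFD3 and 0.90 without HFD2. Against the summed scaffold genes, the log2 ratio was -1.87, -2.25 and -1.04 on NCD and -0.61, -2.19 and -0.18 on HFD, a difference of 0.73 with an exact permutation p of 0.3. This difference was 0.32 without HFD3 and 1.33 without HFD2. The 3 highest ratios to the scaffold genes were in HFD3, HFD1 and NCD3, the 3 smallest libraries. Neither ratio separated the diets.

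The B subunits taken by symbol, which set the substrates of PP2A, gave no gene with an unadjusted p under 0.05 among 12 tested. In the B55 family, the brain-rich *Ppp2r2b* had 158, 131 and 137 CPM on NCD and 120, 149 and 120 CPM on HFD (log2 fold change -0.13), and *Ppp2r2a* had -0.16. *Ppp2r2c* had 0.02 and *Ppp2r2d* 0.19. With a sample left out, *Ppp2r2b* ranged from -0.25 to -0.061, *Ppp2r2a* from -0.27 to -0.0074 and *Ppp2r2d* from 0.033 to 0.37. In the B56 family, *Ppp2r5c*, the most abundant of it at 59.7 FPKM, had a log2 fold change of -0.18, whereas *Ppp2r5b*, *Ppp2r5d* and *Ppp2r5e* had -0.11, -0.06 and 0.15. *Ppp2r5a* had the largest difference of these 12 B subunits, with 16.6, 25.7 and 35.7 CPM on NCD and 40.3, 25.8 and 44.2 CPM on HFD. HFD1 and HFD3 were above all NCD samples and HFD2 was not, as for *Ppp2ca*. Its log2 fold change was 0.51 ± 0.30 (SE), with an unadjusted p of 0.109. Single libraries moved it from 0.25 (without NCD1) to 0.80 (without NCD3, unadjusted p = 0.0144 by edgeR), and the unadjusted p was 0.0354 without HFD2 and 0.0381 when samples were blocked by replicate number. The B'' genes *Ppp2r3a*, *Ppp2r3c* and *Ppp2r3d* had log2 fold changes between -0.0034 and 0.09.

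**Figure D3:**
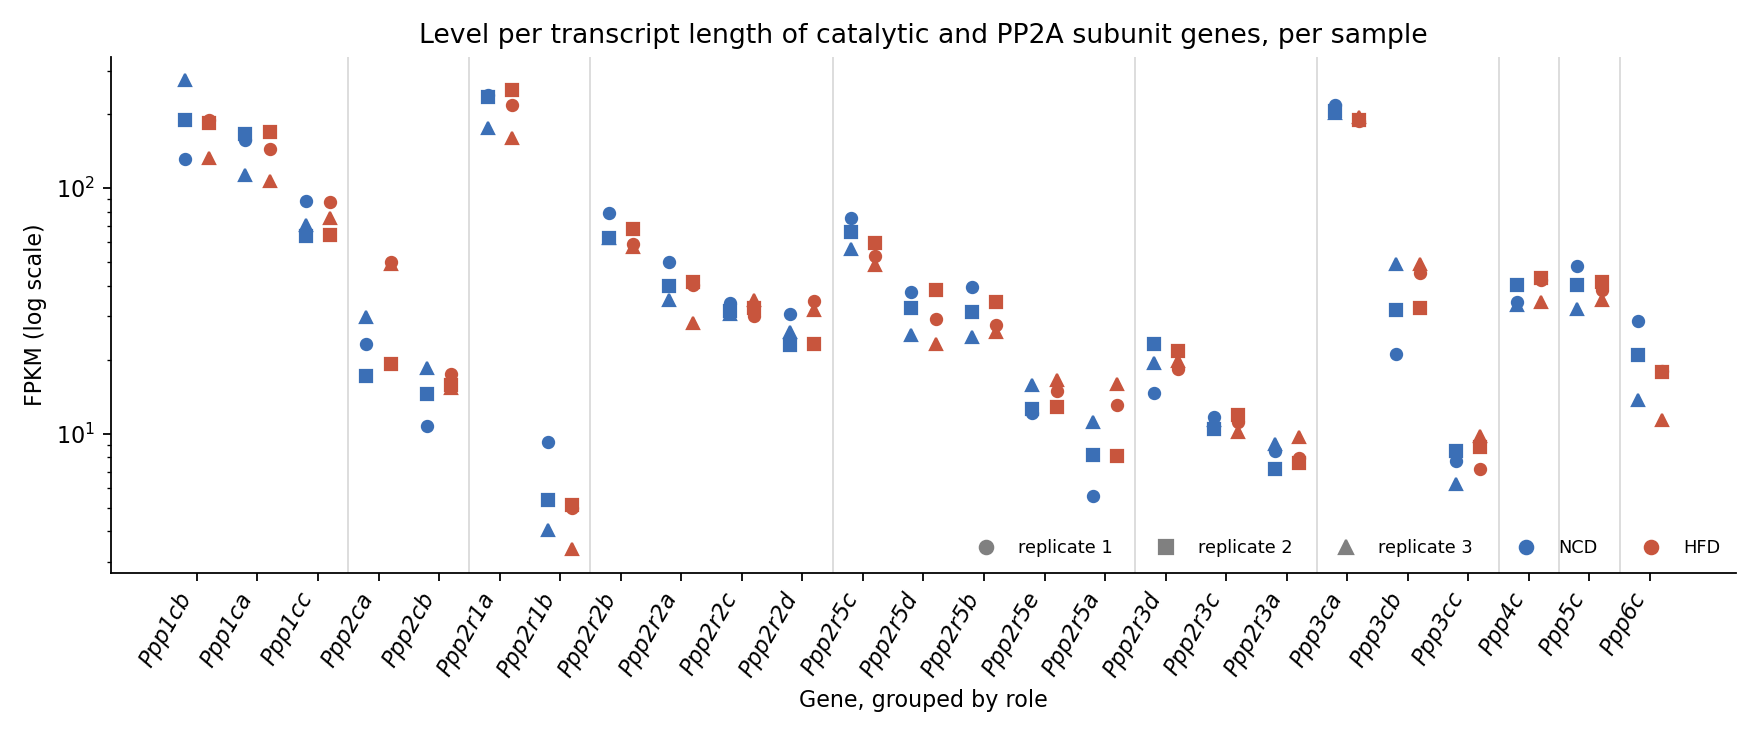
FPKM on a log scale (y axis) of the catalytic genes of every class and of all PP2A subunit genes, with each sample as a point, coloured by diet. *Ppp2r1a* and *Ppp3ca* lie near 200 FPKM while *Ppp2r1b* lies below 10, and for most genes the colours overlap.

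Proteins that load, modify or inhibit PP2A, or join its complexes, but carry other symbols were also counted. Of 20 listed genes, striatins (*Strn*, *Strn3*, *Strn4*) among them, 19 were in the table and tested. None had an unadjusted p under 0.05, 12 were higher and 7 lower, and the median log2 fold change was 0.05, with a range from -0.82 to 0.76. The ends were *Cip2a*, an inhibitor of PP2A, on a mean of only 17.8 counts, and *Bod1*. The groups of *Cip2a* did not overlap, as the only 1 of the 19, against 6.47% of all genes tested. *Bod1* had 13.2, 24.5 and 45.6 CPM on NCD and 49.7, 23.0 and 67.9 CPM on HFD. *Bod1* was high in HFD1 and HFD3 and not in HFD2, and its log2 fold change was 0.40 without NCD1 or HFD3, 0.18 with library size in the model, 1.32 without NCD3 (unadjusted p = 0.00379 by edgeR) and 1.1 without HFD2 (unadjusted p = 0.0154). Its unadjusted p was also under 0.05 with the block (0.00981) and with genes of at least 1 count kept (0.0468). The most abundant were *Arpp19*, an inhibitor of B55 complexes at 184 FPKM, with a log2 fold change of 0.02, and *Ensa*, its close relative, with 0.06. *Ptpa* and *Lcmt1*, an activator and the methyltransferase of the catalytic subunit, had 0.16 and 0.05. *Ppme1*, which removes that methyl group, had -0.03.

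The level of *Ppp2ca* was set against library size. Its 3 highest values were in the 3 smallest libraries, HFD1, HFD3 and NCD3. Over the 6 samples the log2 level of *Ppp2ca* and the log2 total count had a Pearson r of -0.70 (permutation p = 0.114) and a Spearman rho of -0.60 (permutation p = 0.242), with an adjusted p of 0.3625 for each over 6 relations. Without NCD1 and HFD3, r was again -0.70. Within NCD and within HFD there were only 3 samples each, too few for a value. With log2 library size added to the model, the log2 fold change of *Ppp2ca* was 0.43 ± 0.28 (SE), with an unadjusted p of 0.138. The part of library size in the result was not tested further.

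Over the family, in 14 of 70 members (20%) r with the log2 total count was below -0.8, among them *Ppp1r14b*, *Ppp2r5a*, *Ppp1r12c*, *Ppp4r2* and *Ppp3cb*, and in another 14 (20%) it was above 0.8, among them *Ppp3r1*, *Ppp6c* and *Ppp2r1b*. Over all genes tested these shares were 15.0% and 15.8%. These are descriptions over 6 libraries.

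**Figure D4:**
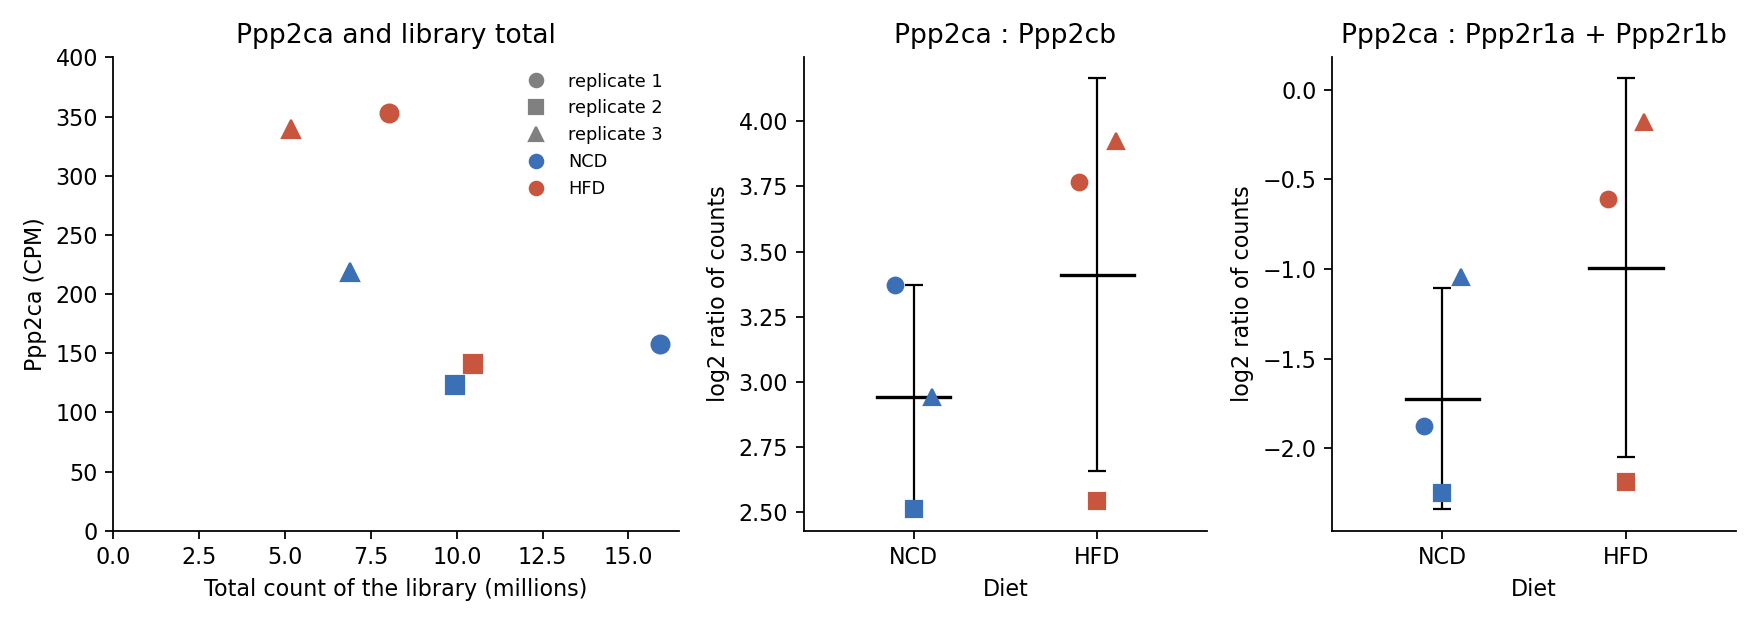
Left, *Ppp2ca* in CPM (y axis) against the total count of each library (x axis). Middle and right, log2 ratio of counts of *Ppp2ca* to *Ppp2cb* and to the summed scaffold genes, with the mean as a line and the SD as a bar, n = 3 per diet. In each panel HFD2 lies beside NCD2, away from HFD1 and HFD3.

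Cell-type markers were read beside *Ppp2ca*, since in a bulk sample fewer cells of a type and less RNA per cell cannot be told apart. The summed level of 10 tanycyte and ependymal markers, for the cells that line the third ventricle next to the ARC, was 303, 351 and 445 CPM on NCD and 494, 313 and 552 CPM on HFD. HFD1 and HFD3 were the highest and NCD3 came next, as for *Ppp2ca*. The most abundant was *Rarres2* at 135 FPKM, 7 of 10 were higher on HFD, the median log2 fold change was 0.27, and *Col23a1* (0.91) and *Crym* (0.89) had an unadjusted p under 0.05. *Col23a1* was 0.27 without HFD3 (unadjusted p = 0.432 by edgeR) and 0.28 with library size in the model (unadjusted p = 0.349), and its p also missed 0.05 without NCD1 or NCD2 and on both FPKM scales. *Crym* missed 0.05 without NCD2 (unadjusted p = 0.0633) or HFD1 (unadjusted p = 0.0545). The 10 neuronal markers summed to 3477, 3740 and 3564 CPM on NCD and 3310, 3876 and 3181 CPM on HFD, and none had an unadjusted p under 0.05. The 8 astrocyte markers summed to 2662, 2949 and 2773 CPM on NCD and 3287, 2963 and 2908 CPM on HFD, with *Slc1a3* the most abundant. Of them 4 were higher and 4 lower, with a median log2 fold change of 0.07, and only *Gfap* (0.88) had an unadjusted p under 0.05, which it missed without NCD3 (0.56, unadjusted p = 0.0725 by edgeR), HFD1 (unadjusted p = 0.126) or HFD2 (unadjusted p = 0.0529). Over all genes tested, 2.3% had an unadjusted p under 0.05. No marker of these 3 lists was at 0 in every sample. Their part in the level of *Ppp2ca* was not tested.

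PP1 gave 39 tested genes of 43, of which 20 were higher and 19 lower on HFD, with a median log2 fold change of 0.02. Its catalytic genes *Ppp1ca*, *Ppp1cb* and *Ppp1cc* had log2 fold changes of -0.045, -0.26 and -0.043, and mean levels of 142, 183 and 74.9 FPKM. *Ppp1cb* had 262, 283 and 349 CPM on NCD and 274, 302 and 169 CPM on HFD, so that HFD3 alone was outside the NCD range. Its log2 fold change was -0.049 without HFD3 and -0.42 without HFD2.

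Glycogen-targeting subunits bring PP1 to glycogen, where it activates glycogen synthase, and *Ppp1r3c* (also called PTG) was the most abundant of the 7 at 14.5 FPKM. It lies at chr19:36731731-36736653 on the minus strand. *Ppp1r3c* had 49.4, 44.8 and 45.7 CPM on NCD and 38.7, 27.9 and 30.1 CPM on HFD. Every HFD sample was below every NCD sample. The log2 fold change was -0.53 ± 0.21 (SE), with an unadjusted p of 0.0228 and an adjusted p of 0.999. The unadjusted p was 0.0900 without HFD2 and 0.0568 without HFD3. With log2 library size in the model it was -0.51. Of the other members of this group, *Ppp1r3e* had the largest difference, 0.94 ± 0.52 (SE), on a mean of only 14.5 counts, and the 6 tested genes ranged from -0.53 to 0.94 with 4 higher on HFD.

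The inhibitor proteins of PP1 include *Ppp1r14c* (KEPI), at chr10:3366057-3464975 on the plus strand. *Ppp1r14c* had 34.0, 31.9 and 31.3 CPM on NCD and 25.1, 23.4 and 22.4 CPM on HFD, so the groups did not overlap. The log2 fold change was -0.45 ± 0.20 (SE), with an unadjusted p of 0.0401 and an adjusted p of 0.999. The log2 fold change stayed between -0.50 and -0.42 when each sample was left out, and the unadjusted p was then 0.0573 to 0.0871. It was 0.0532 by DESeq2 and 0.0517 with genes of at least 1 count kept. A noncoding RNA on the opposite strand, *Gm26752*, covers 29.2% of its exon bases. Its relative *Ppp1r14b* had 9.39, 15.6 and 19.9 CPM on NCD and 20.3, 14.1 and 31.2 CPM on HFD, a log2 fold change of 0.55 ± 0.34 (SE) with HFD2 inside the NCD range. It was 0.21 without HFD3, and 0.81 and 0.79 without NCD3 or HFD2, with an unadjusted p of 0.0342 and 0.0334. The inhibitor *Ppp1r11* was the most abundant PP1 regulator at 207 FPKM, with a log2 fold change of 0.20. *Ppp1r1a* and *Ppp1r1b*, inhibitors that protein kinase A switches on, the latter known as DARPP-32, had log2 fold changes of 0.19 and 0.14. *Ppp1r2* (inhibitor 2) had -0.16 and *Ppp1r14a* -0.09.

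A member outside the unadjusted threshold also had groups that did not overlap. *Ppp1r7*, a nuclear regulator of PP1 also known as SDS22, had 89.8, 85.4 and 82.9 CPM on NCD and 78.4, 75.6 and 81.5 CPM on HFD, a log2 fold change of -0.13 ± 0.18 (SE). Together with *Ppp1r3c* and *Ppp1r14c*, 3 of 70 members (4.29%) did not overlap, all lower on HFD, against 6.47% of all genes tested in either direction and 3.24% in this one. The groups of *Ppp1r7* overlapped with unscaled library totals, where 2 members did not overlap, against 874 of 14188 genes. They also overlapped in FPKM, where 3 of 70 members did not overlap, against 846 of 14133 genes. There *Ppp3ca* took its place, with 216, 204 and 202 FPKM on NCD and 186, 189 and 194 FPKM on HFD. *Ppp2r5c* was added with RLE factors (4 members, against 938 of 14188 genes) and with a mean of at least 50 counts (4 members, against 732 of 11900). The other nuclear regulators, *Ppp1r8* and *Ppp1r10*, had log2 fold changes of 0.14 and 0.11.

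**Figure D5:**
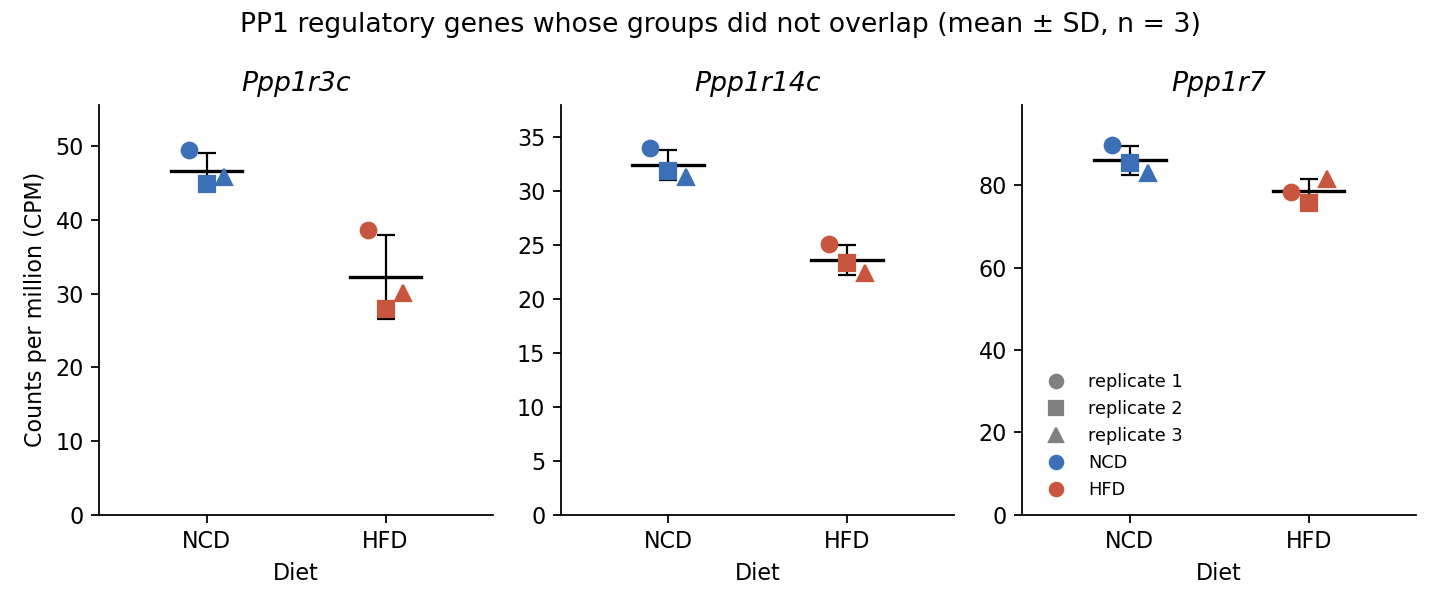
CPM (y axis from 0) of *Ppp1r3c*, *Ppp1r14c* and *Ppp1r7* in each sample, with the mean as a line and the SD as a bar, n = 3 per diet. All HFD points lie below all NCD points in each panel, by a narrow margin for *Ppp1r7*.

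The remaining PP1 groups held no gene with an unadjusted p under 0.05. The eIF2alpha phosphatase subunits, which restart translation after stress, were *Ppp1r15a* (GADD34), with 28.7, 28.0 and 18.2 CPM on NCD and 20.3, 22.6 and 15.6 CPM on HFD, and *Ppp1r15b*. Their log2 fold changes were -0.36 ± 0.25 (SE) and -0.19 ± 0.21 (SE), and without NCD3 *Ppp1r15a* had -0.53 (unadjusted p = 0.0499). In FPKM *Ppp1r15a* was 12.7, 14.1 and 7.51 on NCD and 15.0, 9.78 and 15.1 on HFD, so the direction of this gene changed with the unit. The synaptic targeting subunits *Ppp1r9a* (neurabin) and *Ppp1r9b* (spinophilin), which hold PP1 at dendritic spines, had 0.02 and 0.35. *Ppp1r9b* was at 54.1 CPM in NCD1, well below the 87.8 to 132 CPM of the other samples, and without NCD1 its log2 fold change was 0.070. Of the 5 myosin phosphatase targeting subunits, which bring PP1 to myosin and the cytoskeleton, *Ppp1r12c* had the largest difference, 0.38 ± 0.39 (SE). Single libraries moved it from 0.02 (without NCD1) to 0.97 (without NCD3, unadjusted p = 0.0090 by edgeR), and it was -0.04 with log2 library size in the model. The lowest of the 5 was *Ppp1r12b* at -0.11. Of 9 tested PP1 regulators placed in no role group, 5 were higher and 4 lower. They ranged from *Ppp1r32*, with -0.58 ± 0.29 (SE) and an unadjusted p of 0.0689 (0.0472 without NCD3, 0.0255 without HFD1, 0.0478 with the block and 0.0490 on log2(FPKM + 0.1)), to *Ppp1r42*, with 0.29 ± 0.57 (SE) on a mean of 18.7 counts. The p53-binding subunit gene *Ppp1r13l* had -0.81 ± 0.52 (SE) on a mean of 16.2 counts.

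Calcineurin (PP3) joins a catalytic A subunit to a calcium-binding B subunit. *Ppp3ca*, its main catalytic gene in these samples at 199 FPKM, had 681, 711 and 743 CPM on NCD and 631, 662 and 692 CPM on HFD, a log2 fold change of -0.11 ± 0.20 (SE). *Ppp3cb* and *Ppp3cc* had 0.29 and 0.20, and without NCD3 *Ppp3cb* had 0.67 (unadjusted p = 0.0213). The B subunit gene *Ppp3r1* had 560, 421 and 287 CPM on NCD and 317, 455 and 224 CPM on HFD. The order of its values was that of the library totals in all samples, with r = 0.98 against the log2 total count. Its log2 fold change of -0.35 ± 0.30 (SE) became 0.03 with library size in the model. Single libraries moved it from -0.65 (without HFD2) to -0.10 (without NCD1). The further genes of calcineurin signalling, 11 in all, include RCAN inhibitors and NFAT targets. None had an unadjusted p under 0.05, with 5 higher and 6 lower and a median log2 fold change of -0.061.

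PP4, PP5 and PP6 gave 11 tested genes and no unadjusted p under 0.05. The catalytic genes *Ppp4c*, *Ppp5c* and *Ppp6c* had log2 fold changes of 0.14, -0.06 and -0.24, and mean levels of 38.0, 39.2 and 18.4 FPKM. *Ppp6c* had 92.9, 62.5 and 54.3 CPM on NCD and 64.3, 69.4 and 43.8 CPM on HFD. Among the PP4 regulatory genes *Ppp4r2*, known from DNA repair, had the largest difference, 0.32 ± 0.31 (SE), which single libraries moved from 0.0092 (without NCD1) to 0.76 (without NCD3, unadjusted p = 0.0105 by edgeR), and *Ppp4r3a*, a substrate-binding subunit, had -0.19 ± 0.20 (SE). *Ppp4r1*, *Ppp4r3b* and *Ppp4r4* had -0.17, -0.13 and 0.09. Of the PP6 regulatory genes, *Ppp6r1*, *Ppp6r2* and *Ppp6r3* had 0.33, -0.22 and -0.19. Ankyrin repeat proteins are further partners of PP6. *Ankrd52* had an unadjusted p of 0.0375 and a log2 fold change of -0.72 ± 0.31 (SE), with an adjusted p of 0.999, and *Ankrd44* had -0.57 ± 0.29 (SE), whereas *Ankrd28* had -0.07. The p of *Ankrd52* missed 0.05 with any sample left out (0.0526 to 0.102), by DESeq2 (0.0529), when samples were blocked by replicate number (0.0516) and on log2(FPKM + 1) and log2(FPKM + 0.1) (log2 fold change -0.21 and -0.43). *Ankrd44* ranged from -0.37 without HFD2 (unadjusted p = 0.255 by edgeR) to -0.87 without HFD3 (unadjusted p = 0.0105), and its unadjusted p was 0.0479 with the block and 0.0217 with library size in the model. *Ankrd52* was the only 1 of 15 tested PP1 and PP6 partners outside the symbol rule with an unadjusted p under 0.05. Over all genes tested this share was 2.3%. The groups of 4 of these 15 did not overlap, counted in either direction together, against 6.47% of all genes counted the same way. This count over a short list was not tested. *Phactr1* and *Wbp11* were the most abundant of the 15, with log2 fold changes of -0.05 and -0.13.

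Summed over each class, the diets overlapped throughout. The PP2 genes summed to 1773, 1683 and 1664 CPM on NCD and 1861, 1821 and 1643 CPM on HFD, and the PP1 genes to a mean of 2377 ± 95.4 CPM (SD, n = 3) on NCD and 2361 ± 72.1 CPM on HFD. The PP2A catalytic genes alone summed to 188 ± 52.4 CPM on NCD and 302 ± 119 CPM on HFD, most of it *Ppp2ca*. The PPM family, metal-dependent phosphatases that the symbol rule does not cover, was read for comparison. Of its 18 tested genes 8 were higher and 10 lower, none had an unadjusted p under 0.05, and the median log2 fold change was -0.04. Its most abundant genes, *Ilkap* and *Ppm1b*, had 0.31 and -0.17.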

How the data were processed

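Per the labels and the study's methods, poly(A) RNA of laser-cut ARC was sequenced, and the authors compared reads with ribosomal sequences (bowtie2), aligned them (HISAT2, build mm10 per the labels) and quantified them with StringTie and RSEM. The deposited table gives raw read counts per Ensembl gene and sample, and FPKM values that the authors scaled to transcript length and mapped reads. Its columns of group means, fold changes, p-values and FDR hold the authors' own comparison and were not used. Symbols came from GENCODE M21 (22267 of 22322 identifiers matched).

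Counts were tested with edgeR 4.0.16 (quasi-likelihood, TMM, filterByExpr, diet as the only term) in R 4.3.3, with Benjamini-Hochberg adjustment over all 14188 genes. CPM use TMM-scaled library sizes, and log2 CPM and ratios a prior count of 2. Exact permutation tests of single values were two-sided. Alternatives were DESeq2 1.42.0, RLE factors, unscaled library totals, filters of 1 count and of a mean of 50 counts, limma 3.58.1 on log2(FPKM + 1) and log2(FPKM + 0.1), the replicate number as a block, log2 library size (total count) as a covariate, and each sample left out. The fits were run on simulated counts as a check of the code. These counts had the same dispersion for every gene and no relation of a gene's level to library size. They do not show how the fits behave where levels follow library size. A count of 3 equals 0.181 CPM in the largest library and 0.564 CPM in the smallest, for counting error only.

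The members, the gene lists and the alternatives were chosen with earlier results of these data known. Named genes were every catalytic, PP2A, PP3, PP4 and PP6 subunit gene, PP1 regulators by role, members with an unadjusted p under 0.05, the 8 largest differences in each direction among members with a mean of at least 50 counts, members whose groups did not overlap, and, of the other phosphatase lists, genes with an unadjusted p under 0.05 and the 2 most abundant (the calcineurin list is given as counts only, without 1 gene that is not reported here). Others named were chosen after their values were seen.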

Additional observations from a re-analysis of the deposited data

How the results depend on the processing

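No member had an adjusted p under 0.05 under any alternative, while the number with an unadjusted p under 0.05 depended on the processing and on single samples. *Ppp2ca* was higher on HFD under all alternatives and with every sample left out (log2 fold change 0.43 to 1.05, and 0.52 to 1.05 with a sample left out). Its unadjusted p missed 0.05 by limma on log2(FPKM + 1) (log2 fold change 0.64, unadjusted p = 0.0820) and on log2(FPKM + 0.1) (0.66, unadjusted p = 0.0862), and with log2 library size as a covariate (0.43, unadjusted p = 0.138). It was 0.0225 by DESeq2 and 0.0216 with genes of at least 1 count. The cause was not tested. Members past p under 0.05 with a fold over 1.5 numbered 0 on log2(FPKM + 1) (1.63% of all genes) and with the covariate (1.87%). They numbered 2 when genes with at least 1 count were kept (2.35%), and 0 to 8 with a sample left out. The 8 were without NCD3, where 6.78% of all genes passed. Members with p under 0.05 alone numbered 0 to 10 with a sample left out. Members whose groups did not overlap numbered 5 to 20, where fewer samples make overlap less likely. Without NCD2 there were 5, against 1788 of 14288 genes tested, and without NCD3 there were 20, against 3462 of 14489. Among all genes, those past p and fold numbered 427 with genes of at least 1 count, 179 with a mean of at least 50 counts, and 195 to 982 with a sample left out, and 1555 to 3462 did not overlap. Those with an adjusted p under 0.05 numbered 19 by DESeq2, 15 with genes of at least 1 count and with the covariate, 5 on both FPKM scales, and 1 to 16 with a sample left out. With a sample left out, the *Ppp2ca* ratio differed between diets by 0.21 to 0.90 against *Ppp2cb* and by 0.32 to 1.33 against the scaffold genes. The PP2 sum had a log2 ratio of -0.021 in FPKM and 0.057 in CPM.

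Replicate numbers occur in both groups. The deviations of same-numbered samples correlated at -0.01, 0.11 and 0.37, with a mean of 0.16 against -0.08 for differently numbered samples. Only the samples numbered 3 correlated best with their own number. The numbers were not taken to pair the samples, but so few correlations cannot exclude a pairing. With the replicate block, 6 members had an unadjusted p under 0.05 (4.15% of all genes), 3 of them with a fold over 1.5 (2.65% of all genes), 17 of all genes had an adjusted p under 0.05, and the log2 fold change of *Ppp2ca* was 0.66 (unadjusted p = 0.0067 by edgeR). With the block the ratio differences were 0.47 and 0.73.

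Small differences changed sign in 37 of 80 named genes, none of which had an unadjusted p under 0.05 in the analysis reported, and 43 kept their direction throughout. With library size as a covariate the log2 fold changes were 0.15 for *Ppp2r1a*, 0.0063 for *Ppp2r2a*, 0.14 for *Ppp1ca*, 0.18 for *Ppp1cc*, 0.029 for *Ppp3r1*, 0.10 for *Ppp5c*, 0.062 for *Ppp6c*, -0.092 for *Ppp6r1*, -0.043 for *Ppp1r12c*, 0.098 for *Ppp2r5b*, 0.16 for *Ppp2r5d*, -0.0038 for *Ppp2r5e*, 0.039 for *Ppp2r3c*, -0.16 for *Ppp2r3d*, 0.17 for *Ppme1*, -0.11 for *Ppp1r8*, -0.018 for *Ppp1r42*, -0.13 for *Ppp1r9a*, 0.050 for *Ppm1b*, 0.044 for *Phactr1* and 0.071 for *Ankrd28*. On log2(FPKM + 1) and log2(FPKM + 0.1) they were 0.030 and 0.030 for *Ppp1cc*, 0.22 and 0.24 for *Ppp1r15a*, 0.018 and 0.020 for *Ppp2r3a*, 0.067 and 0.068 for *Ppme1*, -0.029 and -0.025 for *Ppp4r4*, -0.11 and -0.11 for *Ppp1r9a* and 0.15 and 0.15 for *Phactr1*. With a mean of at least 50 counts they were 0.0067 for *Ppp2r3a* and 0.0063 for *Ppp2r3c*, and with RLE factors 0.00073 for *Ppp2r3c*. With a sample left out the ranges were -0.060 to 0.39 for *Ppp2cb*, -0.21 to 0.15 for *Ppp2r1a*, -0.23 to 0.13 for *Ppp1ca*, -0.17 to 0.18 for *Ppp1cc*, -0.00079 to 0.67 for *Ppp3cb*, -0.17 to 0.045 for *Ppp5c*, -0.39 to 0.011 for *Ppp6c*, -0.059 to 0.59 for *Ppp6r1*, -0.017 to 0.31 for *Ppp1r1a*, -0.0011 to 0.34 for *Ppp1r1b*, -0.019 to 0.072 for *Ppp2r2c*, -0.27 to 0.028 for *Ppp2r5b*, -0.30 to 0.11 for *Ppp2r5d*, -0.078 to 0.081 for *Ppp2r3a*, -0.085 to 0.072 for *Ppp2r3c*, -0.19 to 0.41 for *Ppp2r3d*, -0.029 to 0.045 for *Arpp19*, -0.16 to 0.19 for *Ensa*, -0.17 to 0.24 for *Lcmt1*, -0.15 to 0.098 for *Ppme1*, -0.039 to 0.47 for *Ppp1r11*, -0.37 to 0.17 for *Ppp1r14a*, -0.033 to 0.37 for *Ppp1r8*, -0.014 to 0.20 for *Ppp1r10*, -0.33 to 0.67 for *Ppp1r42*, -0.31 to 0.0027 for *Ppp4r1*, -0.075 to 0.43 for *Ppp4r4*, -0.29 to 0.029 for *Ppp6r3*, -0.14 to 0.10 for *Ppp1r9a*, -0.31 to 0.10 for *Ppm1b*, -0.13 to 0.013 for *Phactr1* and -0.17 to 0.10 for *Ankrd28*. Differences that kept their direction also moved, such as -0.26 to -0.00018 for *Ppp4r3b*, -0.33 to -0.068 for *Ppp6r2* and 0.059 to 0.26 for *Ppp4c*. Of 1194 repeated values, 1015 kept both direction and side of the threshold. The cause of these changes was not tested. The count filter left 70 of 75 members to test, and the other 5 could not be compared at this depth.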

Other observations

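The other marker lists were read for the same samples. Of 14 ARC neuron markers, *Cartpt* (log2 fold change 0.75) and *Tac2*, which encodes neurokinin B (0.60), were higher on HFD with an unadjusted p of 0.0116 and 0.0422, and an adjusted p of 0.999 each by edgeR. The list had 11 higher and 3 lower, with a median log2 fold change of 0.20. *Tac2* missed 0.05 with library size as a covariate (0.36, unadjusted p = 0.098) and without NCD1 (0.40, unadjusted p = 0.152), NCD2, HFD1 or HFD3, whereas *Cartpt* stayed under 0.05 with any sample left out. *Cartpt* had 396, 673 and 577 CPM on NCD and 904, 777 and 1078 CPM on HFD, without overlap. Over all genes tested, 3.24% did not overlap in this direction. Of 10 microglia markers 6 were higher and 4 lower, with a median of 0.12, and the complement genes *C1qa* and *C1qb* had 0.46 and 0.44. Of 8 mural cell markers all were lower, and the contractile genes *Acta2* and *Tagln* had -0.83 and -1.05. In the endothelium, with 3 of 8 higher, *Cldn5* had -0.48 and *Ly6c1* 0.81. These 6 genes had an unadjusted p under 0.05 and an adjusted p of 0.999. Over all genes tested, 2.3% had an unadjusted p under 0.05. With 1 sample left out, *Ly6c1* kept its unadjusted p under 0.05 in every case, *Acta2* in 5 of 6, *Tagln* in 4, *Cldn5* in 3 and *C1qa* and *C1qb* in 2 each. *C1qa* also missed it by DESeq2, unscaled library totals, the filter of 1 count, both FPKM scales and the covariate, *Tagln* on both FPKM scales and *Cldn5* with the covariate. Of 10 oligodendrocyte markers 8 were lower (median -0.21), none with an unadjusted p under 0.05, and their sum was 4031 CPM on NCD and 3804 CPM on HFD. The sum of the 5 blood genes ranged from 782 to 2488 CPM among NCD samples and from 824 to 1687 CPM among HFD samples, and all 5 were lower on HFD (median -0.50), none with an unadjusted p under 0.05.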
